A study of Mus musculus with 16 samples.

Results

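Axon guidance genes were examined in mouse small cell lung cancer cells that carried Nfib, Mycl1 or both. The genes were all those with 1 platform symbol of the form Eph, Efn, Sema3 to Sema7, Plxn, Robo, Slit, Unc5, Ntn1 to Ntn5 or Dpysl2 to Dpysl5. These were 58 of the 12393 genes with such a symbol, each read by the brightest of its probe sets on average across the 16 arrays. Of the 58 genes, 36 exceeded a log2 signal of 4 on at least 2 arrays and were tested among 8777 genes. The samples were 2 lines, 3583T3 and 3151T4, each derived from a mouse tumour and grown in serum medium. Nfib cells stably carried an MSCV retroviral vector with FLAG-tagged mouse Nfib, a nuclear factor I transcription factor, and were selected with G418. Mycl1 cells carried an MSCV vector with L-myc, a MYC family transcription factor with the current symbol Mycl, and were selected with puromycin. Nfib+Mycl1 cells carried both vectors, and control cells had no transfection, so vector and selection go with the transgene in each comparison with control. Each line and vector had 2 arrays, which gave 4 arrays per vector. Whether the 2 replicates came from separate cultures is not stated, and the p-values therefore cover a spread that may be technical. The genotype and age of the tumour-bearing mice are not given in the sources used here.

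Axon guidance cues steer growing nerve fibres and also act on cell adhesion and migration in other tissues. Ephrins are ligands held on the cell surface and bind Eph receptor tyrosine kinases on neighbouring cells, and both sides can signal. Semaphorins act through plexins, class 3 semaphorins mostly together with the neuropilins Nrp1 and Nrp2. Secreted Slits bind Robo receptors and often repel cells, netrins bind Dcc, Neo1 and the Unc5 receptors, and the Dpysl proteins (collapsin response mediators) act on the cytoskeleton inside the cell. Several Unc5 receptors and Dcc are known as dependence receptors, which can promote cell death when netrin is missing.

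The 4 genes below rose on average with the Nfib vector over both lines, as described further on, and their upstream DNA is shown because Nfib is a DNA-binding protein. Each sequence is the 250 bases before the annotated start of transcription, from RefSeq on build GRCm38.p6, read 5′ to 3′ on the strand of the gene. Capitals mark the nuclear factor I half-site TTGGC on either strand, which reads GCCAA when it lies on the opposite one. The windows are chr5:47982905-47983154 (plus strand) for Slit2, chr11:35121206-35121455 (plus strand) for Slit3, chr3:141465314-141465563 (plus strand) for Unc5c and chr15:32244563-32244812 (plus strand) for Sema5a.
Slit2: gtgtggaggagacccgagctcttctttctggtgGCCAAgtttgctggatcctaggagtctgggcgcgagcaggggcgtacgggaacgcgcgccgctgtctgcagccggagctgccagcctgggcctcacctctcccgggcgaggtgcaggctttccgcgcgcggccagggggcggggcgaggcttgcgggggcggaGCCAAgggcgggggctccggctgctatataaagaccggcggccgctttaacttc
Slit3: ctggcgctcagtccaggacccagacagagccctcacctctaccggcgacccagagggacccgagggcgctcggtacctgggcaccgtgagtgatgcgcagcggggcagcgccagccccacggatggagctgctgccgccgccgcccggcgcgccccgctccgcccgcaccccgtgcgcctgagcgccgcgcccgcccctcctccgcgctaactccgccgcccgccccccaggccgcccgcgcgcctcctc
Unc5c: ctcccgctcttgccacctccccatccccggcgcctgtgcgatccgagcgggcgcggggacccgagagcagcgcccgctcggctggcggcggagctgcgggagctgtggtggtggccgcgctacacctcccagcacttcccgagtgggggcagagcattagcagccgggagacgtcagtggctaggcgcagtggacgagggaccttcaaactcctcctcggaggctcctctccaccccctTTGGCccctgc
Sema5a: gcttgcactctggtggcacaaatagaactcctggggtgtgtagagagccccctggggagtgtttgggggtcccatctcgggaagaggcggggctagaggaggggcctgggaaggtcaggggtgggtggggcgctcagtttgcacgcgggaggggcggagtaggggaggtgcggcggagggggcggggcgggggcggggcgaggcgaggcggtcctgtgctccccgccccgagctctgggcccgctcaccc
Slit2 had a half-site on the opposite strand 217 and 54 bases before the start, Unc5c had 1 on the gene's strand 11 bases before it, and these windows of Slit3 and Sema5a held no such letters. A match of 5 letters is frequent. It was present in 41.5% of all 32851 promoter windows of this length and in 22 of the 61 windows of the 48 axon guidance genes that matched the table (36.1%). Of the 6 windows of the 5 genes raised by Nfib, 4 had it, both of them from Efna1 included. The full palindromic nuclear factor I site, TTGGC and GCCAA with 5 bases between them, was in 0.0365% of all windows and in 0 of the 61, and the E-box CACGTG, the core element bound by MYC proteins, in 6.02% of all windows and 3 of the 61 (4.92%). These matches describe letters and not binding.

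The labels and the cells were checked before the comparisons. One Mycl probe set reported the transgene. It read 9.08 to 10.82 in Mycl1 cells, 9.99 to 11.05 on 3 of the 4 Nfib+Mycl1 arrays, 2.12 to 2.55 on 3 of the 4 Nfib arrays and 2.24 to 2.47 in control cells. The array labelled 3583T3 Nfib replicate 2 read 10.22 and the array labelled 3583T3 Nfib+Mycl1 replicate 2 read 2.67, each against its label. Over all tested genes 12 of the 16 arrays correlated best with their own replicate, and the other 4 were the 3583T3 Nfib and 3583T3 Nfib+Mycl1 arrays. Of these 4, Nfib replicate 1 and Nfib+Mycl1 replicate 2 correlated best with each other (r = 0.989). So did Nfib replicate 2 and Nfib+Mycl1 replicate 1 (r = 0.990), the same division as in the Mycl signal. An exchange of the 2 labels was not tested. The 2 arrays at odds with their labels were kept as labelled, and the counts of calls are given also without them. None of the 4 Nfib probe sets was higher with the Nfib vector: the brightest read 9.82 to 10.46 on Nfib arrays and 10.48 to 10.76 in control cells. Of 15 neuroendocrine markers, 13 were on the array and 6 passed the filter. Ncam1 (11.52 to 12.37) and Uchl1 (7.88 to 11.39) were bright on all arrays, while Chga, Chgb, Syp, Dll3 and Neurod1 stayed at or below 3.19. The summed signal of 15 macrophage and leukocyte markers, as log2, was 7.58 to 9.35 in Nfib cells, 7.68 to 8.72 in Mycl1 cells and 7.58 to 7.96 in Nfib+Mycl1 cells, against 11.61 to 13.48 in control cells. That of 10 fibroblast markers was 13.91 to 15.27 in Nfib cells, 12.91 to 13.97 in Mycl1 cells, 14.02 to 14.45 in Nfib+Mycl1 cells and 12.65 to 14.61 in control cells. The part of either cell type in the results was not tested. Of 9 endothelial markers 2 passed the filter, of 10 lung epithelial markers 5, and of 7 glial markers 2.

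All 8 roles had at least 1 gene above the filter. Passing were 6 of 8 ephrins, 7 of 11 Eph receptors, 5 of 5 class 3 semaphorins, 6 of 12 membrane-bound semaphorins, 5 of 7 plexins, 3 of 6 Slits and Robos, 3 of 5 netrins and Unc5 receptors and 1 of 4 Dpysl genes. The genes below the filter were Dpysl2, Dpysl4, Dpysl5, Efna5, Efnb3, Epha3, Epha5, Epha6, Epha8, Ntn3, Ntn4, Plxna1, Plxnb3, Robo3, Robo4, Sema4a, Sema5b, Sema6a, Sema6b, Sema6c, Sema6d and Slit1. Their mean signals were 1.86 to 3.59, and the brightest single value was 4.53 for Efna5 on 1 array. Just inside the filter lay Sema4g, which exceeded 4 on 3 arrays. Of the 36 tested genes, 21 exceeded 4 on all 16 arrays. The other 15 passed through some arrays alone, so a gene such as Sema5a, which exceeded 4 on Nfib and Nfib+Mycl1 arrays, had to differ between groups to be tested.

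Several cues and receptors gave a bright signal on every array. Dpysl3 read 11.58 to 12.22 and Efnb2, an ephrin that binds EphB receptors, read 11.10 to 12.37. Among the secreted semaphorins, Sema3a read 9.56 to 11.30 and Sema3e, the ligand of Plxnd1, read 9.24 to 11.56. Robo1, a Slit receptor, read 8.82 to 11.50, Plxnb2 9.39 to 10.98, Sema4b 8.87 to 9.77, Epha4 8.16 to 10.09 and Ntn1 7.45 to 10.87. Signals of different probe sets do not rank genes by abundance.

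**Figure D1:**
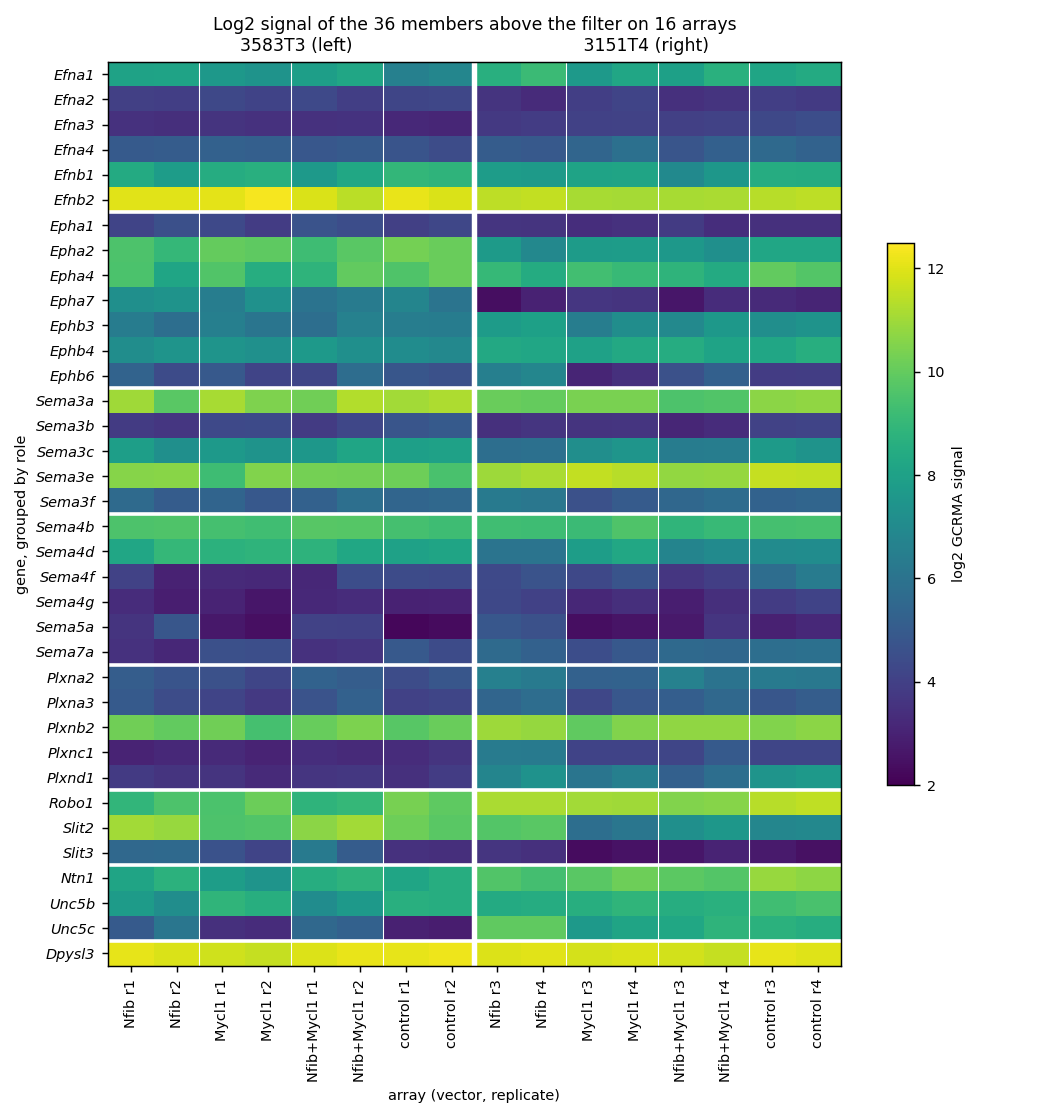
Log2 signal (colour) of the 36 tested axon guidance genes (vertical axis, grouped by role) on each of the 16 arrays (horizontal axis, line 3583T3 left and 3151T4 right). Rows can be read across arrays but not against each other; Unc5c reads 2.83 to 6.14 in 3583T3 and 7.69 to 9.94 in 3151T4.

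The Nfib vector was compared with control to ask what Nfib does to these tumour cells. Slit2, Slit3, Unc5c, Sema5a and Efna1 rose, and Unc5b, Sema3b, Sema3c, Sema4f, Efnb1 and Epha2 fell. These were 11 of 36 tested genes (30.6%), 5 higher and 6 lower, at a Benjamini-Hochberg adjusted p under 0.05 in limma, where 10.3% of all 8777 genes passed (5.3% higher and 4.96% lower). With a mean for each of the 8 groups 17 genes passed, and 17.7% of all genes. The median log2 difference was 0.04 for the 36 genes and 0.03 for all genes. In 17 of the 36 genes (47.2%) the Nfib and control arrays did not overlap in either line and moved the same way, against 23.4% of all genes. In the same comparison 11 of 13 tested macrophage markers fell and 7 of 10 fibroblast markers rose. In bulk samples fewer cells of a type and less RNA per cell cannot be told apart.

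Slit2 and Slit3, secreted ligands of Robo receptors, both rose with Nfib, and Slit1 was below the filter. Slit2 read 11.02 and 10.88 in 3583T3 Nfib cells, against 10.17 and 9.79 in 3583T3 control cells, and 9.70 and 9.80 in 3151T4 Nfib cells, against 6.83 and 6.89 in 3151T4 control cells. Every Nfib array was above both control arrays of its line. The difference over both lines was 1.93 ± 0.38 (SE, n = 4 arrays per vector; adjusted p = 0.00417), with 0.97 in 3583T3 and 2.89 in 3151T4. Slit3 read 5.57 and 5.58 in 3583T3 Nfib cells, against 3.48 and 3.41 in 3583T3 control cells, and 3.63 and 3.47 in 3151T4 Nfib cells, against 2.78 and 2.47 in 3151T4 control cells. It rose by 1.53 ± 0.34 (SE; adjusted p = 0.0102), and the 3151T4 arrays stayed under log2 4. Slit3 exceeded log2 4 only on 3583T3 arrays with a vector and on no control array. It entered the test through groups in which it was higher, so its p-values against control are partly set by the filter. Robo1, the receptor of Slit2 and Slit3, differed by -0.58 ± 0.19 and did not pass (adjusted p = 0.0679).

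The Unc5 receptors of netrin moved in opposite directions. Unc5c read 4.98 and 6.14 in 3583T3 Nfib cells, against 2.97 and 2.83 in 3583T3 control cells, and 9.93 and 9.94 in 3151T4 Nfib cells, against 8.70 and 8.54 in 3151T4 control cells. It rose by 1.99 ± 0.39 (SE; adjusted p = 0.00448), on a dim signal in 3583T3 and a bright one in 3151T4. A second Unc5c probe set differed by 1.07 ± 0.37 and did not pass when every probe set was tested (adjusted p = 0.0866). Unc5b read 7.75 and 7.15 in 3583T3 Nfib cells, against 8.61 and 8.55 in 3583T3 control cells, and 8.44 and 8.52 in 3151T4 Nfib cells, against 9.28 and 9.47 in 3151T4 control cells. It fell by 1.02 ± 0.23 on the log2 scale (SE; adjusted p = 0.0103), and the arrays did not overlap in either line.

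**Figure D2:**
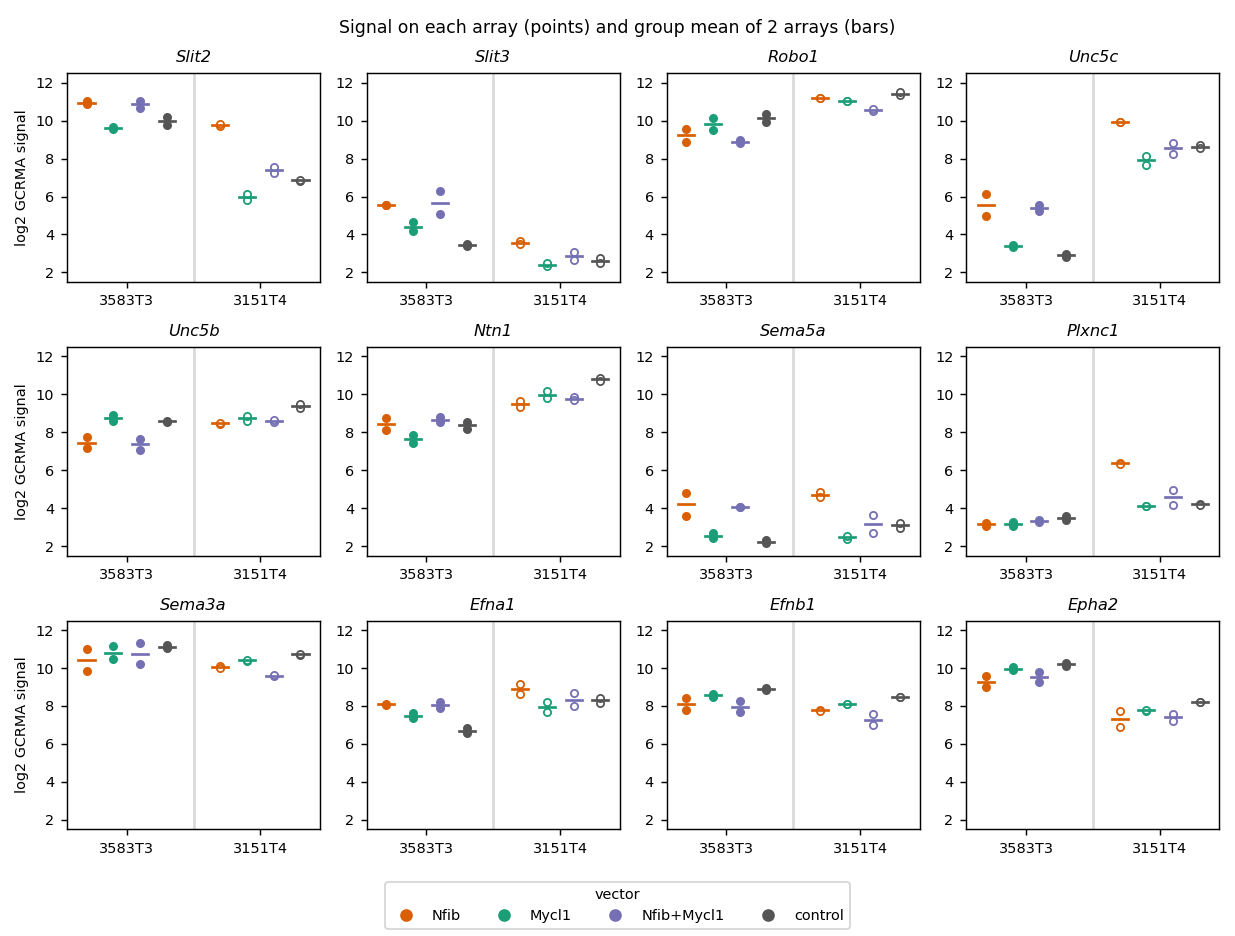
Log2 signal (vertical axis) of selected axon guidance genes on each array (points) with the mean of the 2 arrays (bars), by line (horizontal axis) and vector (colour). Slit2 reads 9.70 and 9.80 with Nfib in 3151T4 and 6.83 and 6.89 in its controls, and the 3151T4 arrays of Robo1 read 10.50 and 10.61 with Nfib+Mycl1 and at least 11.01 with the other vectors and without one.

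Of the 11 tested semaphorins, 1 rose and 3 fell with Nfib. Sema5a, a transmembrane semaphorin that binds Plxnb3, read 3.59 and 4.80 in 3583T3 Nfib cells, against 2.17 and 2.30 in 3583T3 control cells, and 4.83 and 4.58 in 3151T4 Nfib cells, against 2.95 and 3.22 in 3151T4 control cells. It rose by 1.79 ± 0.34 (SE; adjusted p = 0.00378), and all control arrays were under the filter. Sema5a passed the filter only through Nfib and Nfib+Mycl1 arrays, so its p-values against control are partly set by the filter. Sema3b, a secreted semaphorin, read 3.81 and 3.65 in 3583T3 Nfib cells, against 4.77 and 4.96 in 3583T3 control cells, and 3.46 and 3.61 in 3151T4 Nfib cells, against 4.08 and 4.16 in 3151T4 control cells. It fell by 0.86 ± 0.18 on the log2 scale (SE; adjusted p = 0.00561). Sema3b exceeded log2 4 on all control arrays and on no Nfib array. It entered this test through groups in which it was higher, so its p-values against control are partly set by the filter. Sema3c, also secreted, read 7.91 and 7.23 in 3583T3 Nfib cells, against 7.94 and 8.0 in 3583T3 control cells, and 5.78 and 5.86 in 3151T4 Nfib cells, against 7.73 and 7.39 in 3151T4 control cells. Its lower signal lay mostly in 3151T4, and the difference over both lines was -1.07 ± 0.29 (SE; adjusted p = 0.0302). Sema4f, a transmembrane semaphorin, differed by -1.19 ± 0.36 (SE; adjusted p = 0.0468). None of the 5 tested plexins passed in limma, 2 had an unadjusted p under 0.05, and the closest was Plxna3, at 0.62 ± 0.22 (adjusted p = 0.0875). Plxnc1, a receptor of Sema7a, differed by 0.92 ± 0.39 (adjusted p = 0.165) and moved differently in the lines, as given below.

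Among ephrins and Eph receptors, Efna1, an ephrin ligand of EphA receptors, rose by 0.99 ± 0.26 (SE; adjusted p = 0.0223). A second Efna1 probe set differed by 0.76 and did not pass when every probe set was tested (adjusted p = 0.0514). It read 8.06 and 8.11 in 3583T3 Nfib cells, against 6.57 and 6.81 in 3583T3 control cells, and 8.62 and 9.16 in 3151T4 Nfib cells, against 8.18 and 8.42 in 3151T4 control cells. Its receptor Epha2 read 9.56 and 9.01 in 3583T3 Nfib cells, against 10.29 and 10.09 in 3583T3 control cells, and 7.72 and 6.91 in 3151T4 Nfib cells, against 8.22 and 8.23 in 3151T4 control cells. Epha2 fell by 0.91 ± 0.18 on the log2 scale (SE; adjusted p = 0.00551), with the same mean difference of -0.91 in each line. The 3583T3 mean includes Nfib replicate 2, an array at odds with its label, which read 9.01, lower than the 9.56 of replicate 1. The equal means therefore rest on that array. Efnb1, a transmembrane ephrin, read 8.43 and 7.80 in 3583T3 Nfib cells, against 8.95 and 8.85 in 3583T3 control cells, and 7.79 and 7.74 in 3151T4 Nfib cells, against 8.49 and 8.47 in 3151T4 control cells. Its difference was -0.75 ± 0.17 (SE; adjusted p = 0.011). Efnb1 and Epha2 had lower signal on all 4 Nfib arrays, without overlap. Epha4 differed by -1.05 and did not pass (adjusted p = 0.0557).

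Without the 2 arrays at odds with their labels, 14 genes passed, where 9.58% of all genes did. They were the 11 genes above together with Ephb6, Ntn1 and Plxna3. The call of Efna1 ended without 3583T3 control replicate 1 (0.80) or replicate 2 (0.89) or 3151T4 Nfib replicate 4 (0.89), and that of Sema3c ended without 3583T3 Nfib replicate 2 (-1.10), 3151T4 control replicate 3 (-0.91) or 4 (-1.04), or 3151T4 Nfib replicate 3 (-0.91) or 4 (-0.94). That of Sema4f ended on leaving out any of 13 of the 16 arrays, at -1.34 to -0.95; it held without 3583T3 Nfib replicate 1, 3583T3 Nfib+Mycl1 replicate 2 or 3151T4 Nfib+Mycl1 replicate 3.

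**Figure D3:**
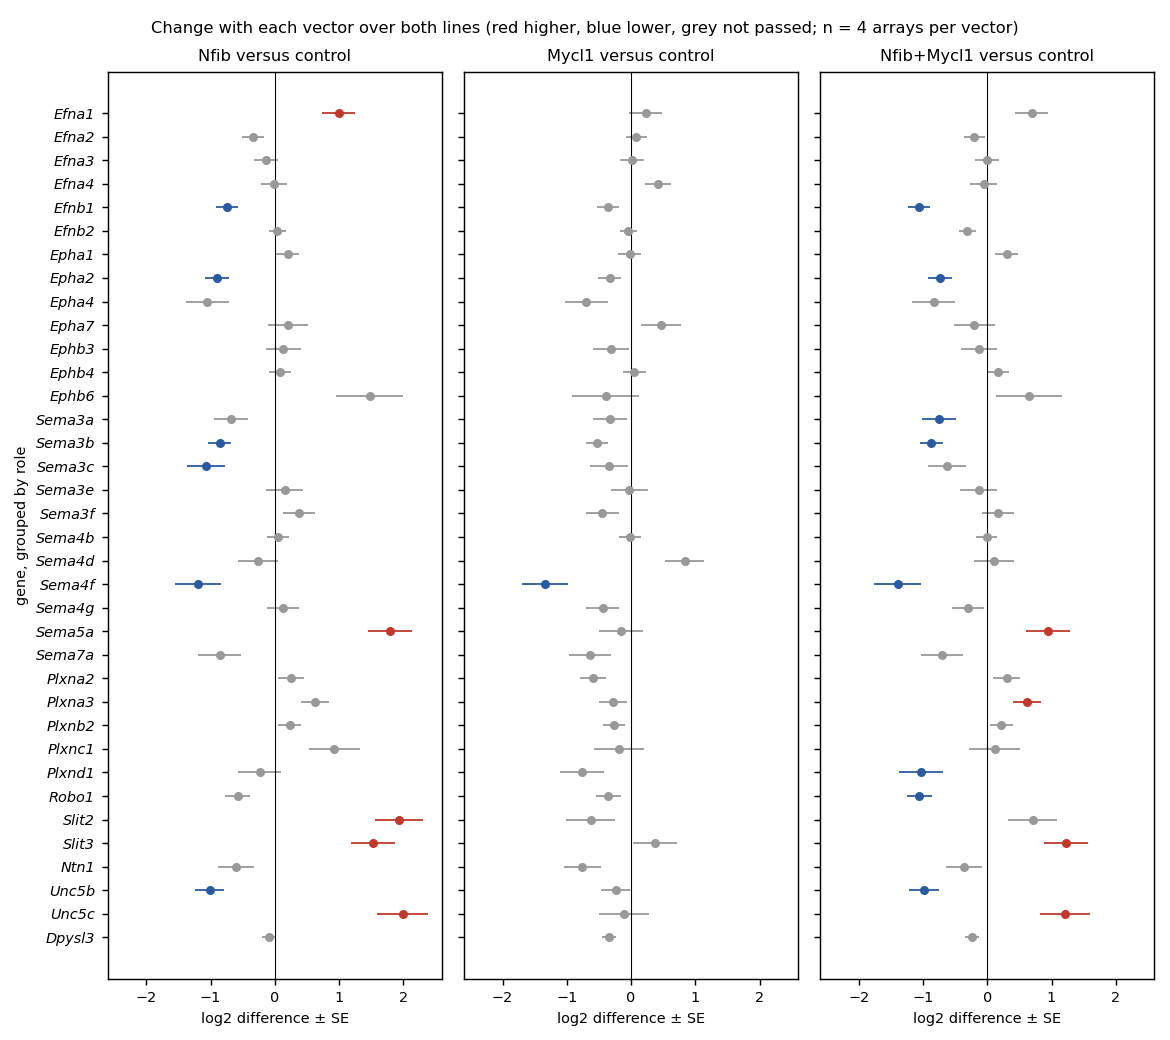
Log2 difference with its SE (horizontal axis) of each tested axon guidance gene (vertical axis) for Nfib, Mycl1 and Nfib+Mycl1 against control, n = 4 arrays per vector. Red points were higher and blue points lower at an adjusted p under 0.05, and grey points did not pass; Nfib against control has 5 red and 6 blue points and Mycl1 against control 1 blue point.

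Mycl1 was compared with control to set a second oncogene of this tumour beside Nfib. The comparison shares its control arrays with the one above. Sema4f alone of the 36 genes passed, where 11.3% of all 8777 genes did (6.63% higher and 4.69% lower). It read 3.24 and 3.21 in 3583T3 Mycl1 cells, against 4.40 and 4.30 in 3583T3 control cells, and 4.27 and 4.75 in 3151T4 Mycl1 cells, against 5.76 and 6.35 in 3151T4 control cells. It fell by 1.33 ± 0.36 on the log2 scale (SE; adjusted p = 0.0312), with no overlap in either line. The median difference of the 36 genes was -0.30, against 0.03 over all genes, and 7 of the 36 had an unadjusted p under 0.05. In 10 of the 36 (27.8%) the arrays did not overlap in either line, against 30.4% of all genes. In the same comparison 12 of 13 tested macrophage markers and 2 of 10 fibroblast markers, Dcn and Pdgfra, fell. With a mean for each of the 8 groups in place of the additive model, 9 genes passed, where 23.4% of all genes did: Dpysl3, Ntn1, Plxna2, Plxnd1, Sema3b, Sema4d, Sema4f, Sema7a and Slit2.

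The genes that rose with Nfib did not pass with Mycl1. Slit2 read 9.57 and 9.65 in 3583T3 Mycl1 cells and 5.81 and 6.13 in 3151T4 Mycl1 cells, in each line below its control arrays given above. Sema3b differed by -0.53 (adjusted p = 0.0616) and Dpysl3 by -0.35 (adjusted p = 0.0519). Without the 2 arrays at odds with their labels, which are not Mycl1 arrays but enter the estimate of the spread, 5 genes passed, where 19.2% of all genes did: Dpysl3, Ntn1, Sema3b, Sema4d and Sema4f. The Sema4f call ended on leaving out any of 7 arrays, at -1.47 to -1.10: 3583T3 control replicate 1, either 3583T3 Mycl1 array, and the 3151T4 control and Mycl1 arrays.

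Cells with both vectors were compared with control to see the 2 oncogenes together. Slit3, Unc5c, Sema5a and Plxna3 rose, and Robo1, Unc5b, Sema3a, Sema3b, Sema4f, Plxnd1, Efnb1 and Epha2 fell. These were 12 of 36 genes (33.3%), 4 higher and 8 lower, where 31% of all 8777 genes passed (16.3% higher and 14.7% lower). The median difference was -0.13 over the 36 genes. In 9 of the 36 (25%) the arrays did not overlap in either line, against 39.7% of all genes. In the same comparison 12 of 13 macrophage markers fell and 1 of 10 fibroblast markers rose.

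Robo1, the Slit receptor, read 8.82 and 8.98 in 3583T3 Nfib+Mycl1 cells, against 10.36 and 9.91 in 3583T3 control cells, and 10.50 and 10.61 in 3151T4 Nfib+Mycl1 cells, against 11.36 and 11.50 in 3151T4 control cells. It fell by 1.06 ± 0.19 on the log2 scale (SE; adjusted p = 0.00161), and the arrays did not overlap in either line. Its ligand Slit3 rose by 1.23 ± 0.34 (SE; adjusted p = 0.0154), with 2.23 in 3583T3 and 0.23 in 3151T4. Slit2 differed by 0.70 ± 0.38 and did not pass (adjusted p = 0.163). It read 10.68 and 11.06 in 3583T3 Nfib+Mycl1 cells and 7.22 and 7.54 in 3151T4 Nfib+Mycl1 cells, in each line above its control arrays.

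Unc5c rose by 1.20 ± 0.39 over both lines (SE; adjusted p = 0.0302), the mean of 2.49 in 3583T3 and -0.08 in 3151T4. It read 5.53 and 5.26 in 3583T3 Nfib+Mycl1 cells, against 2.97 and 2.83 in 3583T3 control cells, and 8.26 and 8.81 in 3151T4 Nfib+Mycl1 cells, against 8.70 and 8.54 in 3151T4 control cells. The arrays stood apart in 3583T3 and overlapped in 3151T4. A second Unc5c probe set differed by 0.48 and did not pass (adjusted p = 0.342). Unc5b read 7.09 and 7.66 in 3583T3 Nfib+Mycl1 cells, against 8.61 and 8.55 in 3583T3 control cells, and 8.55 and 8.66 in 3151T4 Nfib+Mycl1 cells, against 9.28 and 9.47 in 3151T4 control cells. It fell by 0.99 ± 0.23 on the log2 scale (SE; adjusted p = 0.00612), without overlap in either line.

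The ephrin-B ligand Efnb1 read 7.70 and 8.24 in 3583T3 Nfib+Mycl1 cells, against 8.95 and 8.85 in 3583T3 control cells, and 7.0 and 7.57 in 3151T4 Nfib+Mycl1 cells, against 8.49 and 8.47 in 3151T4 control cells. It fell by 1.06 ± 0.17 on the log2 scale (SE; adjusted p = 9.18e-04). Epha2 differed by -0.74 ± 0.18 (SE; adjusted p = 0.00886). Both were lower in each line. Of the semaphorins, Sema3b differed by -0.87 ± 0.18 (adjusted p = 0.0029), Sema4f by -1.40 ± 0.36 (adjusted p = 0.0103), Sema3a by -0.75 ± 0.26 (adjusted p = 0.0424) and Sema5a by 0.95 ± 0.34 (adjusted p = 0.0474). Sema5a was 1.82 higher in 3583T3 and 0.08 higher in 3151T4. Plxna3, a partner of neuropilins in semaphorin signalling, differed by 0.62 ± 0.22 (adjusted p = 0.0412), while its second probe set differed by 0.34 and did not pass when every probe set was tested (adjusted p = 0.226). The other plexin that passed was Plxnd1, the receptor of Sema3e, at -1.03 ± 0.34 (adjusted p = 0.032). Plxnd1 read 5.20 and 5.78 in 3151T4 Nfib+Mycl1 cells, against 7.45 and 7.69 in 3151T4 control cells, and in 3583T3 it stayed at 3.45 to 3.85 in both groups.

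With both arrays at odds with their labels left out the count was again 12, where 35.4% of all genes passed, but 3 genes were exchanged: Plxna3 (0.47, adjusted p = 0.0902), Sema5a (0.76, adjusted p = 0.115) and Unc5c (1.0, adjusted p = 0.0649) no longer passed, and Dpysl3, Epha4 and Sema3c did. Calls that ended on leaving out 1 array were those of Slit3 without 3583T3 control replicate 1 (1.04), Unc5c without any 3583T3 control or Nfib+Mycl1 array (0.92 to 1.02) and Plxnd1 without any 3151T4 control or Nfib+Mycl1 array (-0.92 to -0.71). Plxna3 was lost without 3151T4 control replicate 3, 3151T4 Nfib+Mycl1 replicate 4 or any 3583T3 control or Nfib+Mycl1 array (0.46 to 0.67). Sema3a was lost without 10 of the 16 arrays (-0.81 to -0.63) and Sema5a without 12 (0.76 to 1.04). Sema3a held without either 3583T3 Nfib array, either 3583T3 Mycl1 array, 3583T3 Nfib+Mycl1 replicate 2 or 3151T4 Nfib replicate 3, and Sema5a without either 3583T3 Nfib array, 3151T4 Nfib+Mycl1 replicate 3 or 3151T4 control replicate 4. Both other tested probe sets of Sema3a passed on all 16 arrays when every probe set was tested in limma. They differed by -1.12 (adjusted p = 0.0292) and -1.49 (adjusted p = 0.00353).

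Nfib+Mycl1 cells were set against Mycl1 cells to see what the Nfib vector adds where Mycl1 is already present. Control arrays do not enter this difference, and the summed macrophage markers overlapped between Nfib+Mycl1 (7.58 to 7.96) and Mycl1 cells (7.68 to 8.72), while 2 of 10 fibroblast markers rose. Plxna2 and Plxna3, both class A plexins, rose and Efnb1 fell. These 3 of 36 genes (8.33%) compare with 3.77% of all genes (1.78% higher and 1.99% lower). With 8 means 11 genes passed, where 12.3% of all genes did. Plxna2 read 5.31 and 5.10 in 3583T3 Nfib+Mycl1 cells, against 4.61 and 4.21 in 3583T3 Mycl1 cells, and 6.60 and 5.98 in 3151T4 Nfib+Mycl1 cells, against 5.28 and 5.30 in 3151T4 Mycl1 cells, a difference of 0.90 ± 0.21 (SE; adjusted p = 0.0284). Plxna3 read 4.70 and 5.27 in 3583T3 Nfib+Mycl1 cells, against 4.14 and 3.74 in 3583T3 Mycl1 cells, and 5.13 and 5.53 in 3151T4 Nfib+Mycl1 cells, against 4.24 and 4.86 in 3151T4 Mycl1 cells, a difference of 0.91 ± 0.22 (SE; adjusted p = 0.0319). Efnb1 differed by -0.71 ± 0.17 (SE; adjusted p = 0.0338). The other probe sets of Plxna3 and Efnb1 had the same sign and did not pass, with 0.62 for Plxna3 (adjusted p = 0.105) and -0.60 and -0.48 for Efnb1 (adjusted p = 0.0713 and 0.102). For these 3 genes the arrays did not overlap in either line, as for 13 of the 36 genes (36.1%) and 19.7% of all genes.

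Genes that rose with Nfib alone had differences in the same direction here that did not pass. They were 1.33 for Slit2 (adjusted p = 0.0608), 1.31 for Unc5c (adjusted p = 0.0733) and 1.11 for Sema5a (adjusted p = 0.0814). Robo1 differed by -0.70 (adjusted p = 0.0531). With both arrays at odds left out, Efnb1, Plxna2 and Sema3a passed, where 3.25% of all genes did, and Plxna3 did not (0.76, adjusted p = 0.0615). Each call rested on single arrays. That of Efnb1 ended without 3583T3 Nfib+Mycl1 replicate 1, 3583T3 Mycl1 replicate 2, either 3151T4 Mycl1 array or 3151T4 Nfib+Mycl1 replicate 3 (-0.71 to -0.56). That of Plxna2 ended without either 3583T3 Nfib+Mycl1 array, 3583T3 Mycl1 replicate 2, either 3151T4 Mycl1 array or 3151T4 Nfib+Mycl1 replicate 3 (0.82 to 0.90). That of Plxna3 ended without either 3583T3 Nfib+Mycl1 array, 3583T3 Mycl1 replicate 2, 3151T4 Mycl1 replicate 3 or 3151T4 Nfib+Mycl1 replicate 4 (0.75 to 0.96).

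Nfib+Mycl1 cells were also set against Nfib cells, which by label differ by the Mycl1 vector. Slit2 alone passed of 36 genes, where 16.9% of all genes did (8.89% higher and 8.04% lower). With 8 means 7 genes passed, where 28.2% of all genes did: Efnb2, Plxnc1, Plxnd1, Robo1, Sema5a, Slit2 and Unc5c. Of the 10 fibroblast markers 8 had a difference below 0, with a median of -0.67, and Pdgfra fell. Slit2 read 10.68 and 11.06 in 3583T3 Nfib+Mycl1 cells, against 11.02 and 10.88 in 3583T3 Nfib cells, and 7.22 and 7.54 in 3151T4 Nfib+Mycl1 cells, against 9.70 and 9.80 in 3151T4 Nfib cells. The difference of -1.22 ± 0.38 (SE; adjusted p = 0.0382) lay in 3151T4, at -2.37, with -0.08 in 3583T3. In 2 of the 36 genes (5.56%) the arrays did not overlap in either line, against 24.9% of all genes. Both 3583T3 groups of this comparison hold an array at odds with its label. Without these, Efnb1, Ephb6, Plxnd1, Sema3a and Slit2 passed, where 27.6% of all genes did. The Slit2 call ended without 3583T3 Nfib+Mycl1 replicate 1 or any 3151T4 Nfib or Nfib+Mycl1 array (-1.27 to -0.90).

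The lines were compared over all vectors, since each comes from its own tumour. Epha7, Slit2, Epha2 and Slit3 were higher and Unc5c, Plxnd1, Ntn1, Plxnc1 and Robo1 lower in 3583T3 than in 3151T4. In all, 29 of 36 genes (80.6%) passed, 12 higher and 17 lower in 3583T3, where 58.6% of all 8777 genes passed (27.7% higher and 30.9% lower). Leaving out the arrays at odds with their labels, 30 passed, and 57.9% of all genes. Epha1, Epha7 and Slit3 exceeded log2 4 on 3583T3 arrays alone, and Efna3, Plxnc1, Plxnd1 and Sema4g on 3151T4 arrays alone. Each entered the test only through the line in which it was higher, so these calls and the count are partly set by the filter. With no filter 34 of 58 genes passed, where 45.4% of all genes did. In the same comparison all 6 tested neuroendocrine markers differed, 5 of them lower in 3583T3, among them Ddc, at 1.42 to 1.89 in 3583T3 and 7.41 to 10.71 in 3151T4. Of the 10 fibroblast markers 2 were higher and 5 lower in 3583T3, of the 13 macrophage markers 2 were higher, and both tested glial markers were lower. Their part in the differences was not tested. One line per tumour was measured, and the labels do not say at what passage.

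Receptors showed wide differences. Unc5c averaged 4.31 in 3583T3 and 8.75 in 3151T4 and differed by -4.43 ± 0.28 (SE, n = 8 arrays per line; adjusted p = 2.9e-09), which is 21.6-fold lower signal in 3583T3. Its second probe set differed less, by -2.84 ± 0.26, when every probe set was tested in limma (adjusted p = 2.12e-07). The 3583T3 control and Mycl1 arrays of the chosen probe set were under the filter level, at 2.83 to 3.46. Epha7, an EphA receptor, averaged 6.69 in 3583T3 and 3.12 in 3151T4, 11.9-fold higher in 3583T3 (3.57 ± 0.22; adjusted p = 3.04e-09). All 8 arrays of 3151T4 were under the filter for Epha7, at 2.38 to 3.68, against 6.0 to 7.37 in 3583T3. Plxnd1 averaged 3.60 in 3583T3 and 6.60 in 3151T4 (-3.0 ± 0.24; adjusted p = 4.57e-08), and its ligand Sema3e averaged 10.15 in 3583T3 and 11.23 in 3151T4 (-1.08 ± 0.20; adjusted p = 3.08e-04). All 5 tested plexins and all 3 tested netrin and Unc5 genes were lower in 3583T3. Epha2 averaged 9.74 in 3583T3 and 7.68 in 3151T4 (2.06 ± 0.13; adjusted p = 3.55e-09).

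Ligand and receptor of the Slit pathway differed in opposite directions between the lines. Slit2 averaged 10.35 in 3583T3 and 7.49 in 3151T4 (2.86 ± 0.27; adjusted p = 2.7e-07) and Slit3 4.77 in 3583T3 and 2.86 in 3151T4 (1.91 ± 0.24; adjusted p = 7.28e-06). Their receptor Robo1 averaged 9.52 in 3583T3 and 11.05 in 3151T4 (-1.52 ± 0.13; adjusted p = 1.54e-07). Ntn1, the secreted ligand of Unc5 receptors, was lower in 3583T3, at 8.28, than in 3151T4, at 10.01 (-1.73 ± 0.20; adjusted p = 2.78e-06). Of the netrin receptors outside the Unc5 family, Dcc stayed at 2.85 to 3.30 on all arrays.

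Sema4d, a membrane-bound ligand of Plxnb1, was higher in 3583T3 by 1.48, and Sema3c, Epha1, Efnb2, Sema3b, Sema3a, Efnb1 and Efna2 were higher by 0.41 to 0.95. Sema7a differed by -1.36, Plxna2 by -1.29, Ephb3 by -1.04 and Ephb4, a receptor of Efnb2, by -1.0. Sema4f, Efna1, Efna3, Plxna3, Plxnb2, Unc5b and Sema4g were lower by smaller amounts, between -0.98 and -0.58. The 7 genes that did not pass were Dpysl3, Efna4, Epha4, Ephb6, Sema3f, Sema4b and Sema5a.

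**Figure D4:**
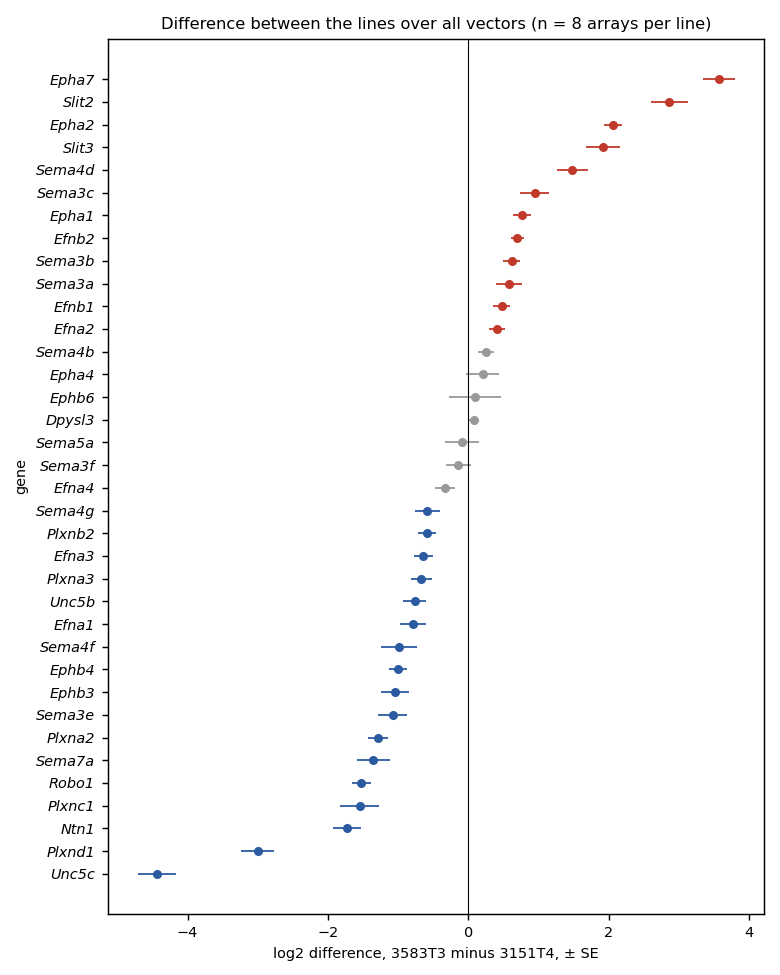
Log2 difference between the lines, 3583T3 minus 3151T4, with its SE (horizontal axis) for each tested axon guidance gene (vertical axis), over all vectors, n = 8 arrays per line. Red genes were higher and blue genes lower in 3583T3 at an adjusted p under 0.05, from 3.57 for Epha7 to -4.43 for Unc5c.

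The response to a vector was then compared between the lines, in a model with 8 means. For Nfib the difference of the responses passed for 6 of 36 genes (16.7%), Ephb6, Ntn1, Plxnc1, Sema3c, Sema4d and Slit2, where 6.85% of all genes passed (2.75% positive and 4.1% negative). Plxnc1 read 3.06 and 3.23 in 3583T3 Nfib cells, against 3.35 and 3.56 in 3583T3 control cells, and 6.37 and 6.34 in 3151T4 Nfib cells, against 4.21 and 4.18 in 3151T4 control cells. Its Nfib difference was -0.31 in 3583T3 and 2.16 in 3151T4, and these differed by -2.48 ± 0.33 (SE; adjusted p = 3.95e-04). All 3583T3 arrays of Plxnc1 were under log2 4, so a response particular to 3151T4 and the lower level of 3583T3 cannot be told apart here. Of its other probe sets, 1 passed when every probe set was tested (-2.17 ± 0.32; adjusted p = 8.91e-04) and 1 did not (-1.09 ± 0.39; adjusted p = 0.141). Slit2 was above control in both lines, by 0.97 in 3583T3 and 2.89 in 3151T4, and the 2 responses differed by -1.92 ± 0.28 (SE; adjusted p = 7.81e-04). In the same test 10 of 13 macrophage markers differed, all with a lower response in 3583T3. For Cd53 and Cd14 the Nfib arrays of 3151T4 read above both control arrays of that line. In 3583T3 the summed control signal of the markers was 12.78 to 13.48, against 11.61 to 11.71 in 3151T4. Of the 10 fibroblast markers 6 differed.

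Ephb6, an Eph receptor without kinase activity, read 5.34 and 4.41 in 3583T3 Nfib cells, against 4.82 and 4.62 in 3583T3 control cells, and 6.53 and 6.82 in 3151T4 Nfib cells, against 3.86 and 3.90 in 3151T4 control cells. Its responses differed by -2.64 ± 0.62 (SE; adjusted p = 0.0187). Ntn1 read 8.13 and 8.75 in 3583T3 Nfib cells, against 8.16 and 8.56 in 3583T3 control cells, and 9.66 and 9.35 in 3151T4 Nfib cells, against 10.87 and 10.73 in 3151T4 control cells. Its arrays overlapped in 3583T3 and stood apart in 3151T4, and the responses differed by 1.37 ± 0.34 (SE; adjusted p = 0.0241). Sema4d read 8.23 and 8.99 in 3583T3 Nfib cells, against 8.03 and 8.15 in 3583T3 control cells, and 6.05 and 6.04 in 3151T4 Nfib cells, against 7.08 and 7.11 in 3151T4 control cells. Its 2 responses had opposite signs and differed by 1.58 ± 0.37 (SE; adjusted p = 0.0191). The rise in 3583T3 came mostly from Nfib replicate 2 (8.99), an array at odds with its label, while replicate 1 (8.23) lay close to the controls. For Sema3c the responses were -0.40 in 3583T3 and -1.74 in 3151T4 (1.34 ± 0.36; adjusted p = 0.0377).

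For Nfib+Mycl1 the responses differed in 4 of 36 genes (11.1%), all in the positive direction, where 5.97% of all genes passed (4.31% positive and 1.66% negative). Unc5c responded by 2.49 in 3583T3 and -0.08 in 3151T4, which differ by 2.58 ± 0.45 (SE; adjusted p = 0.00278), and Plxnd1 by 0.03 in 3583T3 and -2.08 in 3151T4 (2.11 ± 0.39; adjusted p = 0.00386). Plxnd1 exceeded log2 4 on the 8 arrays of 3151T4 alone. Its 3583T3 arrays read 3.24 to 3.85, under the filter level, where a fall of this size could hardly be measured, so a response particular to 3151T4 and the lower level of 3583T3 cannot be told apart here. The others were Slit3, with 2.23 in 3583T3 and 0.23 in 3151T4 (2.0 ± 0.45; adjusted p = 0.0165; all 3151T4 arrays were under log2 4), and Ntn1, with 0.31 in 3583T3 and -1.03 in 3151T4 (1.34 ± 0.34; adjusted p = 0.0305). In the same test 7 of 13 macrophage and 7 of 10 fibroblast markers differed. For Mycl1 no response differed between the lines in limma (0 of 36 genes, where 2.13% of all genes passed, 1.24% positive and 0.889% negative), while 8 had an unadjusted p under 0.05 and the lowest adjusted p was 0.187.

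Without the 2 arrays at odds with their labels, 5 genes differed for Nfib, where 7.61% of all genes did. Ntn1 was the one that no longer passed (1.07, adjusted p = 0.0699). For Nfib+Mycl1 6 genes then differed, Ephb6 and Sema5a joining, where 8.74% of all genes did, and for Mycl1 2 genes, Slit3 and Unc5c, where 4.33% did. The calls of Plxnc1 and Slit2 for Nfib, and of Plxnd1 and Unc5c for Nfib+Mycl1, held on leaving out each array in turn. Plxnc1 and Plxnd1 exceeded log2 4 on 3151T4 arrays alone, and Slit3 on 3583T3 arrays alone. The calls of these genes are partly set by the filter and by the floor in the other line, which leaving out arrays does not test. The other calls each ended without certain single arrays. For Nfib, that of Ephb6 ended without any control array, 3583T3 Nfib replicate 2 or 3151T4 Nfib replicate 4 (-2.74 to -2.17). That of Ntn1 ended without 3583T3 control replicate 1, either 3151T4 control array, 3583T3 Nfib replicate 2 or 3151T4 Nfib replicate 4 (1.07 to 1.44), and that of Sema4d without any control array, 3583T3 Nfib replicate 2 or either 3151T4 Nfib array (1.19 to 1.64). Sema3c was lost without 11 of the 16 arrays (1.0 to 1.51) and held without 3583T3 Nfib replicate 2 or any 3583T3 Mycl1 or Nfib+Mycl1 array. For Nfib+Mycl1, Ntn1 was lost without 3583T3 control replicate 1, 3583T3 Nfib+Mycl1 replicate 2 or any 3151T4 control or Nfib+Mycl1 array (1.14 to 1.43). Slit3 was lost without 3583T3 control replicate 2, 3151T4 control replicate 3 or 3151T4 Nfib+Mycl1 replicate 3 (1.80 to 1.97).

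**Figure D5:**
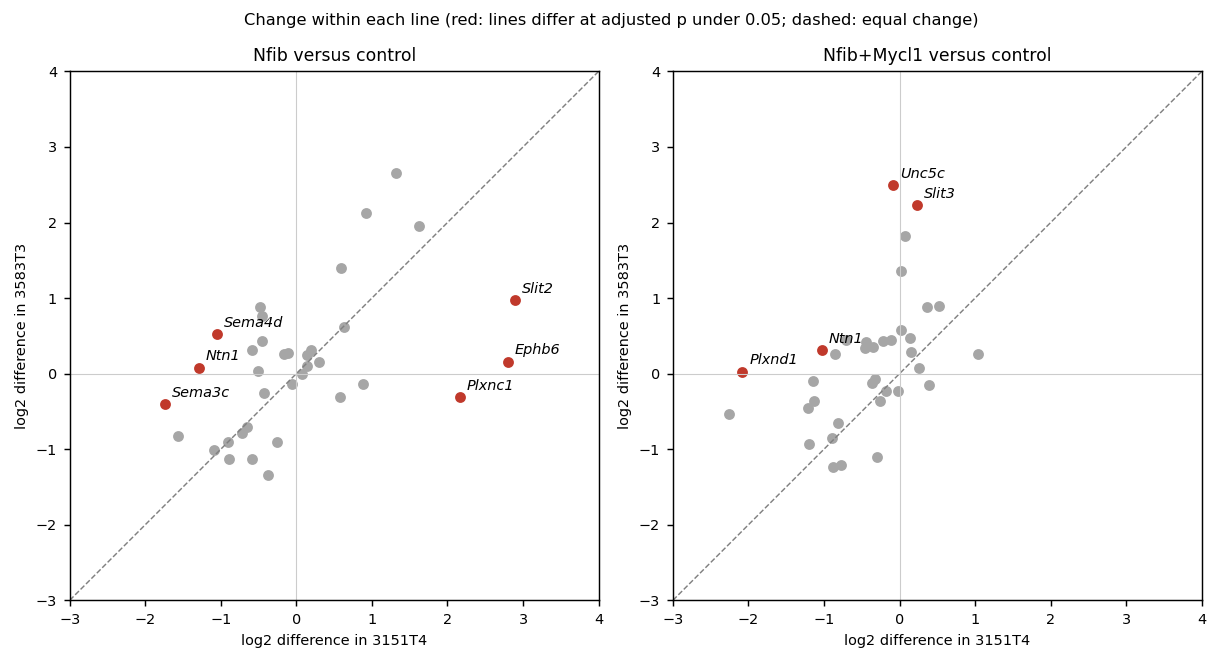
Log2 difference from control in 3583T3 (vertical axis) against that in 3151T4 (horizontal axis) for each tested axon guidance gene, for Nfib (left) and Nfib+Mycl1 (right), 2 arrays per group. Red genes have responses that differ at an adjusted p under 0.05; Plxnc1 lies at -0.31 in 3583T3 and 2.16 in 3151T4 on the left, and Unc5c at 2.49 in 3583T3 and -0.08 in 3151T4 on the right.

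Other genes of the pathway were taken from 2 lists, 23 co-receptors and adhesion molecules, of which 7 passed the filter, and 45 cytoplasmic signalling genes, of which 35 did. With Nfib, 1 co-receptor rose and 1 fell, 28.6% of the 7 tested, where 10.3% of all genes passed. Nrp1, the co-receptor of Sema3a, read 11.88 and 11.77 in 3583T3 Nfib cells, against 11.49 and 11.47 in 3583T3 control cells, and 12.89 and 12.95 in 3151T4 Nfib cells, against 12.30 and 12.43 in 3151T4 control cells. It rose by 0.45 ± 0.12 (SE; adjusted p = 0.0221), with no overlap in either line. L1cam, a neural adhesion molecule, differed by -1.12 ± 0.30 (SE; adjusted p = 0.0256), a call lost without the 2 arrays at odds with their labels. Of the signalling genes Tiam1, an activator of Rac, rose by 0.70 and Vav3 differed by -0.99, with the other 33 not passing. These 2 of 35 (5.71%) compare with 10.3% of all genes.

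With Mycl1, Nrp1 fell by 0.45 ± 0.12 on the log2 scale (SE; adjusted p = 0.0273) and none of the 35 signalling genes passed in limma, while 5 had an unadjusted p under 0.05. Of all genes 11.3% passed in this comparison. With both vectors Nrp1 did not pass (-0.04, adjusted p = 0.806). Alcam, an adhesion molecule of the immunoglobulin superfamily, differed by -1.59 ± 0.34 (SE; adjusted p = 0.00424). Of the signalling genes 2 rose with both vectors, Ngef and Tiam1, and 8 fell: Arhgef12, Enah, Limk1, Nck2, Rock1, Src, Trio and Vav3. These 10 of 35 (28.6%) compare with 31% of all genes. Src, a kinase used by many guidance receptors, differed by -0.81 ± 0.17 (SE; adjusted p = 0.00361), and Limk1, which regulates actin through cofilin, by -0.58 ± 0.14 (SE; adjusted p = 0.00782). Between Nfib+Mycl1 and Nfib cells, Nrp1 differed by -0.49, 1 signalling gene rose (Mical2) and 4 fell (Arhgef12, Enah, Nck2 and Rasa1). These 5 of 35 signalling genes (14.3%) compare with 16.9% of all genes. Between Nfib+Mycl1 and Mycl1 cells no gene of either list passed in limma, while 2 of 7 and 12 of 35 had an unadjusted p under 0.05, and Nrp1 differed by 0.40 (adjusted p = 0.0637). Of all genes 3.77% passed there. Without the 2 arrays at odds, Nrp1 passed again with Nfib and with Mycl1 alone, and some signalling genes were exchanged. With Nfib, L1cam (-1.03, adjusted p = 0.0607) and Tiam1 (0.49, adjusted p = 0.116) no longer passed, Vav3 did, and Ablim1 joined. With Mycl1, Tiam1 then rose and Rras fell. With both vectors, Rock1 (-0.37), Arhgef12 (-0.24) and Ngef (0.45) no longer passed, and Ncam1, Rras and Fes fell. Between Nfib+Mycl1 and Nfib cells 5 co-receptors then fell (Alcam, Celsr3, Ncam1, Neo1 and Nrp1), Mical2 (0.34) and Rasa1 (-0.54) no longer passed, and 1 signalling gene was higher and 6 lower. Without the 2 arrays 27.6% of all genes passed in this comparison. Against control 9.58% did with Nfib, 19.2% with Mycl1 and 35.4% with both vectors.

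Between the lines, 6 of the 7 co-receptors passed. L1cam was higher in 3583T3, and Nrp1 (-0.77), Nrp2 (-2.22), Neo1, Ncam1 and Celsr3 (-2.54) were lower. Of the signalling genes 21 of 35 (60%) passed, 9 higher and 12 lower in 3583T3, near the 58.6% of all genes. L1cam, Fes and Ngef exceeded log2 4 on 3583T3 arrays alone, and Celsr3 on 3151T4 arrays alone. Each entered the test only through the line in which it was higher, so these calls and both counts are partly set by the filter. The Nfib response of Celsr3 differed between the lines by -1.97 ± 0.38 (SE; adjusted p = 0.00517) and the Nfib+Mycl1 response of Alcam by 2.07 ± 0.36 (SE; adjusted p = 0.00272). Celsr3, a cadherin needed for axon tracts, read 6.96 and 6.63 in 3151T4 Nfib cells, against 5.06 and 5.01 in 3151T4 control cells, and 2.65 and 2.79 in 3583T3 Nfib cells, against 2.71 and 3.15 in 3583T3 control cells. All 3583T3 arrays of Celsr3 were under log2 4, at 2.65 to 3.54. A response particular to 3151T4 and the lower level of 3583T3 therefore cannot be told apart here.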

How the data were processed

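The deposited values are a log2 signal for each of 22690 probe sets on every array. The authors used R 2.11.0 with GCRMA 2.20.0, per the submitters' processing notes, a method that corrects background from probe sequence and normalizes by quantiles. The log2 scale was taken from the range of the values, since the sources used here do not state it. Total RNA (100 ng) was amplified with the NuGEN Ovation system before biotin labelling, per the labels' protocols. Probe sets were named from the platform annotation. Samples were grouped by the titles.

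Linear models were fitted in R 4.3.3 by limma 3.58.1 (lmFit and eBayes, trended prior variance) to all 16 arrays, with vector and line as additive terms (11 residual degrees of freedom). A second model, with a mean for each of the 8 groups (8 residual degrees of freedom), gave the responses that differ between lines. Benjamini-Hochberg adjustment ran over 8777 genes with 1 probe set each, above log2 4 on at least 2 arrays, and calls are adjusted p under 0.05. Near the floor of the signal a change is understated, so a difference of responses can be set by a line in which the gene is at the floor. Scripts were tested on simulated data. The number of arrays limits the precision.

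The genes, lists and tests were chosen with earlier results of these data known. Named are all tested genes called in any comparison, the member with the highest mean per role, genes below the filter by name, and called genes of both pathway lists. Alternatives were other filters, every probe set, a second quantile normalization, centring, no trend, a replicate block, 8 means, averaged replicates, leaving out each array, and, chosen after seeing the data, leaving out the 2 arrays at odds with their labels. The promoter windows are those of RefSeq on GRCm38.p6. No column of the table was left out (0).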

Additional observations from a re-analysis of the deposited data

Results flagged for a closer look

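Responses that differed between the lines stand here because the difference itself passed the test, as 3583T3 minus 3151T4 on the log2 scale. For Nfib against control they were -2.64 for Ephb6, 1.37 for Ntn1, -2.48 for Plxnc1, 1.34 for Sema3c, 1.58 for Sema4d and -1.92 for Slit2. For Nfib+Mycl1 against control they were 1.34 for Ntn1, 2.11 for Plxnd1, 2.0 for Slit3 and 2.58 for Unc5c. The 2 sets share their control arrays. Ntn1 stood in both, and in both its signal was lower than control in 3151T4 alone, by means of -1.29 with Nfib and -1.03 with Nfib+Mycl1, against 0.08 and 0.31 in 3583T3. With Mycl1 its mean was below control in both lines, at 9.99 against 10.80 in 3151T4 and 7.66 against 8.36 in 3583T3. The lower signal in 3151T4 was thus seen with every vector. Both 3583T3 groups with Nfib hold an array whose Mycl signal goes against its label.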

How the results depend on the processing

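Counts are tested axon guidance genes that passed. A filter at log2 6 left 25 of them and gave 7 for Nfib and 0 for Mycl1 against control (8.92% and 12.2% of all genes). No filter gave 3 for Mycl1 against control and 0 for Nfib+Mycl1 against Nfib (6.87% and 9.14%). Mycl1 against control gave 2 after a second quantile normalization, 3 after centring and 2 without the mean-variance trend; these scalings moved array medians by at most 0.046 and 0.087. The replicate block gave 0 for Mycl1 against control, 1 for Nfib+Mycl1 against Mycl1 and 0 for Nfib+Mycl1 against Nfib (4.76%, 1.57% and 10.8%). Of 12 same-numbered pairs, 3 correlated above 0.1 (-0.74 to 0.31), all 3 of them in 3151T4 (0.31, 0.28 and 0.19). The -0.74 was between 3583T3 Nfib and Nfib+Mycl1, the groups that hold the arrays at odds with their labels. Whether the numbers pair the samples is therefore not settled. With 8 means, 17 passed for Nfib and 9 for Mycl1 against control, 11 for Nfib+Mycl1 against Mycl1 and 7 against Nfib (17.7%, 23.4%, 12.3% and 28.2%). Averaged replicates gave 0 for Nfib, 0 for Mycl1 and 1 for Nfib+Mycl1 against control, 0 for Nfib+Mycl1 against Mycl1 and 0 against Nfib (0.205%, 0.057%, 2.88%, 0% and 0%); this fit has 3 residual degrees of freedom, and for responses between lines it has none and was not run. Without the 2 arrays at odds with their labels, Mycl1 against control gave 5, Nfib+Mycl1 against Nfib 5 and the Mycl1 response between lines 2. Leaving out each array in turn gave 8 to 13 for Nfib, 0 to 4 for Mycl1 and 7 to 13 for Nfib+Mycl1 against control, 0 to 5 for Nfib+Mycl1 against Mycl1, 0 to 3 against Nfib, 29 to 30 for the lines, and 2 to 7, 0 to 0 and 2 to 7 for the Nfib, Mycl1 and Nfib+Mycl1 responses between lines. The cause of these moves was not tested. None of the 67 calls of single genes changed sign under an alternative that could test it. Averaged replicates aside, 47 passed wherever they were tested, though of these 33 could be tested at the log2 6 filter and 18 with the replicate block. Of 29 comparisons of another probe set with a called one, 29 had the same sign and 9 did not pass. With every probe set tested in limma, some others passed where the chosen one did not. Against control they were of Sema3a for Nfib (-1.14, adjusted p = 0.0295) and of Epha4 (-1.26, adjusted p = 0.0168) and Dpysl3 (-0.77, adjusted p = 0.0396) for Nfib+Mycl1. Between lines they were of Sema3e, for the Nfib response (1.22 and 1.24, adjusted p = 0.0474 and 0.0265) and the Nfib+Mycl1 response (1.17, adjusted p = 0.0389).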

Other observations

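Values below the filter were not tested. Epha3, a receptor of ephrin-A ligands, had 3 probe sets. The one chosen by its mean read 2.41 to 3.50, while another read 2.73 to 3.92 on the 3151T4 arrays and 1.68 to 2.42 on the 3583T3 arrays. Sema4a was among the genes below the filter, and its chosen probe set read at most 3.86.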
